A study of Mus musculus with 8 samples.

Results

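In mouse embryonic fibroblasts, the size of the serum response differed between Med23-/- and wild-type cells for 402 of 14947 tested probe sets. For each probe set, the response to serum in knockout cells was set against the response in wild-type cells, and the difference of the 2 responses is called the interaction here. All 8 arrays of the series entered this comparison, 2 in each of 4 groups. Fibroblasts are connective tissue cells, taken here from E11 embryos and grown past crisis, when most primary cells cease to divide and an immortal culture emerges. Wild-type (WT) and Med23-/- knockout (KO) cells were starved for 16 h in 0.5% serum and either kept starved or brought to 20% fetal bovine serum for 30 min. The series design asks which serum-responsive genes are affected by the loss of MED23, and gives most attention to Egr1 and its class. The labels call the samples duplicates but do not say whether they were separate cultures, or from how many embryos or lines each genotype came, so p-values measure only the spread between these samples, and genotype and line cannot be told apart.

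Mediator is a large complex that carries signals from activators on DNA to RNA polymerase II, and MED23 is the subunit that the activator ELK1 contacts on serum-responsive genes. Immediate early genes are switched on within minutes of growth factor addition without new protein synthesis, and many encode transcription factors of the EGR, FOS, JUN and KLF families. An interaction can come from the level before serum, from the level after it, or from both, so the level that made each difference is given throughout.

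Med23 checked the genotype labels, with signals of 4901 and 5410.5 in starved and 3596 and 3577 in stimulated wild-type cells, and 28.0 and 133 in starved and 34.6 and 36.9 in stimulated knockout cells. Every knockout array was far below every wild-type array, and the interaction of Med23 itself was -0.12 (limma adjusted p = 0.941). Array medians lay between 766 and 924, and the correlation of replicate arrays over probe sets was 0.976 to 0.984, against 0.750 to 0.805 for arrays of the other genotype. Of 13 fibroblast markers, 10 were at or above their array's 40th percentile on all 8 arrays, while Thy1 was below it on all 8. Pdgfra and Lum were below it on the wild-type arrays only. Pdgfra read 13.3 to 129 in wild-type and 6040 to 15782 in knockout cells, and Lum 130 to 273 and 1110 to 1731. The summed signal of the fibroblast markers was 178470 to 198090 on the wild-type arrays and 328820 to 436620 on the knockout arrays, so the cultures also differed in these genes. Not every marker followed the sum: Dcn was lower in the knockout, at 2365 to 3500 against 4807 to 8105, and Fn1, Twist1 and Thy1 overlapped. None of 7 epithelial, 7 endothelial, 7 muscle, 5 adipocyte and 7 neural markers reached the 40th percentile on all 8 arrays, and 1 of 8 blood cell markers did (Csf1r). The adipocyte sum was 874 to 1242 in wild-type and 3763 to 6572 in knockout cells, and Cebpa and Lpl held most of it. Of the other adipocyte markers, Pparg was at 33.9 to 122 in wild-type and 14.4 to 31.7 in knockout cells, and Adipoq and Fabp4 were at most 244 on any array. The neural sum was 5094 to 8632 in wild-type and 2732 to 3473 in knockout cells. Nes held most of it in wild type, at 2876 to 6134.5 against 445 to 530 in the knockout. Tubb3, Sox2 and Pax6 were lower in the knockout too. Map2 went the other way, at 343 to 359 in wild-type and 1597 to 2025 in knockout cells, and Gfap and Dcx overlapped. The part of these marker differences in the results below was not tested. In cultures measured whole, fewer cells of a type and less RNA per cell cannot be told apart. Col1a2, a collagen chain, read 581 and 743 on the wild-type arrays of set 1 and 8871 and 9443 on those of set 2, whichever the serum state. In this gene the set 1 and set 2 arrays of wild type thus stood apart in the same way before and after serum. Over probe sets, the deviations of same-numbered wild-type arrays correlated at 0.214 between the serum states.

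More probe sets passed the test for serum in knockout than in wild-type cells. In limma's fit over all 8 arrays, 619 of 14947 probe sets passed an adjusted p of 0.05 for serum in wild-type cells (4.14%) and 3455 in knockout cells (23.1%). The median response of all tested probe sets was -0.05 in wild-type and -0.13 in knockout cells. Centring each array on its median moved the knockout value to 0.03, and the 2 counts under that scaling are not given here. The interaction passed for 402 (2.69%), which named 317 of 8453 genes. In 241 of them (1.61% of all tested) the knockout response was more positive, and in 161 (1.08%) it was more negative, written below as responded more and responded less. The size of the called interactions ran from 0.62 to 5.54 on the log2 scale with a median of 1.25, and 300 were over 2-fold. All 402 had no overlap, in that each of the 16 ways of taking 1 array from every group gave the same sign, against 34.9% of all tested probe sets. Over a larger set, 737 of 14947 (4.93%) had an interaction over 2-fold with all 16 combinations of 1 sign. Across the tested probe sets, the knockout response correlated with the wild-type response at Pearson r = 0.547 (Spearman rho = 0.375), with an SD of 0.619 against 0.446 on the log2 scale, which describes genes and not replicates.

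**Figure D1:**
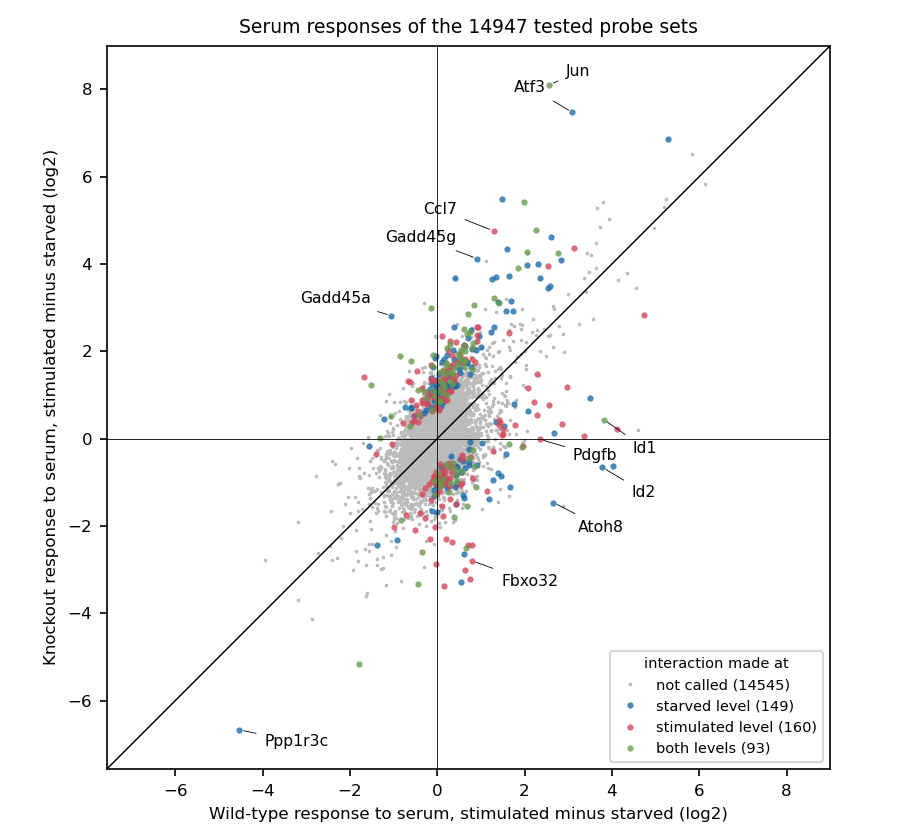
Wild-type response to serum (x axis, log2) against knockout response (y axis, log2) for the 14947 tested probe sets, each the mean of 2 stimulated arrays minus the mean of 2 starved arrays, with equal responses on the diagonal. Coloured points are the 402 called interactions by the level that makes them (149 starved, 160 stimulated, 93 both), Jun and Atf3 lie far above the diagonal, and Id1, Id2, Atoh8 and Fbxo32 lie far below it.

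Most called interactions had a serum response that passed the test in knockout cells only or was larger there. The serum response passed the test in knockout cells only, upward, for 166 of the 402 and, downward, for 103. A response that did not pass in wild-type cells is not shown to be absent. The p-values were adjusted within each contrast, so the same unadjusted p could pass in knockout and fail in wild-type cells, which favours the knockout-only class. The wild-type Efnb2 response of -0.62 ± 0.15 had a limma adjusted p of 0.0519, against 0.0521 for a knockout Hk1 response of -0.46 ± 0.15. Of the 166, 68 came from the starved level alone, where the knockout began lower. Another 60 rose in both genotypes and rose more in the knockout. A response called in wild-type cells only, or larger there, was the smaller class. It held 30 probe sets called as rising and 7 as falling in wild-type cells only, and 9 that rose in both but less in the knockout. Among the 275 probe sets that serum raised in both genotypes, 69 had a called interaction (25.1%), while of the 165 that fell in both, 6 did (3.64%). Responses called in opposite directions made up 11, and 10 had a response called in neither genotype.

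The level that made a difference was read from the knockout-minus-wild-type contrast in each serum state, which passed for 7111 of 14947 probe sets in starved cells (47.6%) and for 7506 in stimulated cells (50.2%). A difference was assigned to the starved level where the knockout was called lower before serum for a larger response, or higher for a smaller one, and to the stimulated level where the called difference after serum ran with the interaction. By this rule 149 interactions came from the starved level, 160 from the stimulated level and 93 from both, with median sizes of 1.25, 1.19 and 1.36 on the log2 scale. Probe sets that responded more came from the starved level in 101, the stimulated level in 77 and both in 63 cases. Probe sets that responded less came from them in 48, 83 and 30 cases. Thus 51.6% of the smaller responses were made after serum alone, against 32.0% of the larger ones, a difference in shares that is described here and was not tested. The level also depended on the scaling. Centring each array on its median gave 162 starved, 192 stimulated and 107 of both, and quantile normalization 140, 119 and 80. Centring kept 349 of the 402 calls, 88.3% of these at the same level. Shares by direction under these scalings are not given here.

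Among the 101 larger responses of the starved level, the knockout began lower and was not called different after serum in 79, and it remained lower after serum in 22. For the 63 of both levels, the knockout was lower before serum and higher after it. Of the 77 of the stimulated level, 64 were called higher in the knockout only after serum and 13 in both states. The 48 smaller responses of the starved level began higher in the knockout, with 33 not called different after serum and 15 still higher. The 83 of the stimulated level ended lower, with 61 not called different before serum and 22 already lower.

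**Figure D2:**
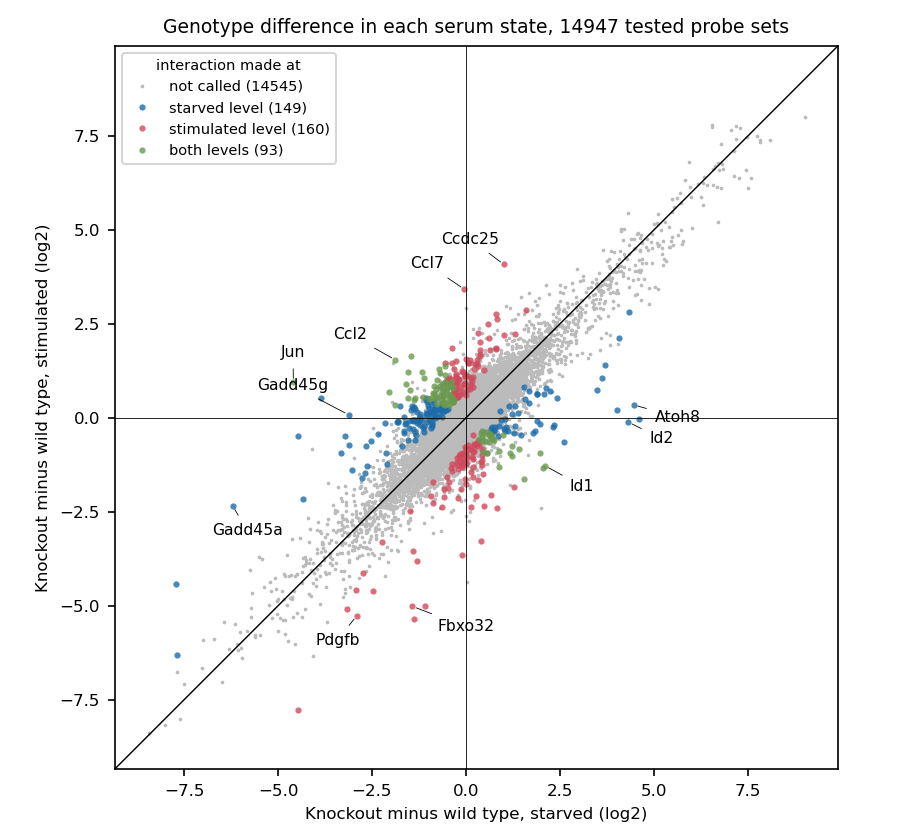
Knockout minus wild type in starved cells (x axis, log2) against the same difference in stimulated cells (y axis, log2) for the 14947 tested probe sets, with equal differences on the diagonal. Starved-level interactions (149) lie near the horizontal axis or to its side, stimulated-level ones (160) near the vertical axis or to its side, and those of both levels (93) in the upper left and lower right corners.

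Centring each array on its median, instead of using the deposited scaling, raised the median interaction of all tested probe sets from -0.06 to 0.05 and gave 461 calls, 353 more and 108 less, so that 76.6% responded more instead of 59.95%. No called interaction of a gene named by the rules in the methods changed sign under centring or any other setting tried. Of those not called, 3 (Med23, Pdgfra and Ifit2) did under at least 1 setting. For calls, the leave-out fits could not change a sign, since all 16 combinations of arrays agreed. Varying the filter, trend, block or choice of probe sets leaves the estimate as it is. Genes named by level and size also had to keep their sign with 250 added. The normalizations and the other pseudocounts could have changed it. The direction of small differences near the shift in the median depends on the scaling.

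Immediate early transcription factors held the highest share of calls among the 20 gene lists, with 12 of 28 tested members responding more and 1 less, against 1.61% and 1.08% of all probe sets. Their median interaction was 0.87, against -0.06 over all tested probe sets. These are mostly serum-induced genes, with a median wild-type response of 2.53, and of the 275 probe sets that serum raised in both genotypes 25.1% were called. The level was the starved one for Egr1, Junb, Atf3, Klf10, Ier2 and Ier5, both for Jun, Jund and Klf6, and the stimulated one for Klf4, Myc and Maff. The 15 others did not pass, among them Fos at -0.14 (adjusted p = 0.804), Fosb at -0.30 and Nr4a1 at 0.11. The 12 became 6 without WT starved array 2, 6 without WT stimulated array 2, and 5 without either KO stimulated array or with no mean-variance trend in the fit.

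Egr1, the zinc finger factor the study singled out, read 6993 and 7545 in starved and 44251 and 44094 in stimulated wild-type cells, and 1336 and 1965 in starved and 40512 and 39301 in stimulated knockout cells. The groups overlapped nowhere between starved and stimulated cells, and the stimulated arrays of the 2 genotypes lay close together. Serum raised it 6.07-fold in wild-type and 24.4-fold in knockout cells, and the interaction was 2.01 ± 0.22 (limma adjusted p = 0.00201). The knockout began 4.45-fold lower (adjusted p = 3.1e-06), while after serum its difference from wild type was -0.15 on the log2 scale (adjusted p = 0.461), so the starved level made the difference. Fold values here and below are ratios of group means on the scale of log2(signal + 16), which understates ratios of dim probe sets.

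Jun, a subunit of the AP-1 factor, had the largest called interaction in these data, 5.54 ± 0.20 (limma adjusted p = 1.06e-06). It read 2552 and 2818 in starved and 15868 and 16095 in stimulated wild-type cells, and 84.0 and 109 in starved and 31859 and 29710 in stimulated knockout cells. Starved knockout arrays were the lowest and stimulated knockout arrays the highest of all 8, so both levels contributed, 24.1-fold lower before serum and 1.92-fold higher after it. Serum raised Jun 5.93-fold in wild-type and 275-fold in knockout cells. Because the starved knockout signals lay under the 40th percentile of their arrays (462 and 497), the size depends on the constant added before the log: adding 250 instead of 16 gave 4.02, and another Jun probe set gave 2.50 ± 0.23 (limma adjusted p = 0.000911).

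The other AP-1 genes with a call followed the starved level or both. Jund read 11962 and 13163 in starved and 13528 and 15950 in stimulated wild-type cells, and 4828 and 4736 in starved and 22989 and 17982 in stimulated knockout cells, and its response in wild-type cells was 0.23 on the log2 scale (adjusted p = 0.435) against 2.08 in knockout cells (adjusted p = 5.71e-06). Its level of both became the starved one without WT stimulated array 1 or KO stimulated array 1. Junb read 3152 and 3987 in starved and 25566 and 25231 in stimulated wild-type cells, and 1272 and 1792 in starved and 24078 and 27999 in stimulated knockout cells. Its stimulated arrays overlapped between genotypes, and its interaction of 1.25 was lost when WT starved array 2 or any stimulated array was left out. Atf3, a stress-induced partner of JUN, read 1042 and 1383 in starved and 12633 and 8530.2 in stimulated wild-type cells, and 164 and 23.6 in starved and 15368 and 14597 in stimulated knockout cells. The starved knockout arrays were low and apart from each other, and its interaction was 4.38 ± 0.75 (limma adjusted p = 0.016), or 2.63 with 250 added. Atf3 lost its call without WT starved array 2, WT stimulated array 2 or either KO stimulated array.

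The smaller starved-level factors were alike in form. Ier2 and Ier5, nuclear proteins of the early response, had interactions of 0.92 and 1.21, with stimulated differences of -0.12 (adjusted p = 0.447) and -0.02 (adjusted p = 0.922). Klf10, a Krüppel-like factor induced by TGF-beta, read 3508 and 3817 in starved and 22395 and 21331 in stimulated wild-type cells, and 1251 and 1259.6 in starved and 13800 and 15071 in stimulated knockout cells. It was lower in the knockout both before and after serum, and its larger rise (interaction 0.93) was lost without WT starved array 2, WT stimulated array 2 or either KO stimulated array. Ier2 lost its call in 5 of 8 such fits and Ier5 in none.

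At the stimulated level, knockout cells overshot. Myc, the growth-promoting transcription factor, read 6096 and 6644 in starved and 10103 and 9077 in stimulated wild-type cells, and 5066 and 5646 in starved and 18407 and 17264 in stimulated knockout cells. The starved arrays were close together in both genotypes, the stimulated knockout arrays were the highest, and the interaction was 1.15 ± 0.16 (limma adjusted p = 0.00569). Maff, a small Maf protein, read 1352 and 1551 in starved and 9463 and 7543 in stimulated wild-type cells, and 1559 and 2274 in starved and 28625 and 30545 in stimulated knockout cells. Its interaction of 1.43 was lost in 4 of 8 leave-out fits, without WT starved array 2, WT stimulated array 2 or either KO stimulated array. Klf4 read 2409 and 1599 in stimulated wild-type and 7881 and 9404 in stimulated knockout cells, and its interaction of 1.51 was lost in 6 of 8. Klf6, of both levels, read 8114 and 8533 in starved and 13557 and 10967 in stimulated wild-type cells, and 3653 and 5886 in starved and 18885 and 18846 in stimulated knockout cells. Its interaction of 1.47 was lost in 5 of 8, while a dimmer Klf6 probe set at 1.70 was lost only without KO stimulated array 2.

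Bhlhe40, a repressor of the basic helix-loop-helix class, was the 1 immediate early factor that responded less. It read 1926 and 2291 in starved and 17112 and 15857 in stimulated wild-type cells, and 1868 and 1999 in starved and 4278 and 4576 in stimulated knockout cells. All 4 starved arrays were alike, and the stimulated knockout arrays were 3.71-fold below the stimulated wild-type arrays. Serum raised it 7.79-fold in wild-type and 2.28-fold in knockout cells, for an interaction of -1.77 ± 0.18 (limma adjusted p = 0.0014), which held in every leave-out fit.

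**Figure D3:**
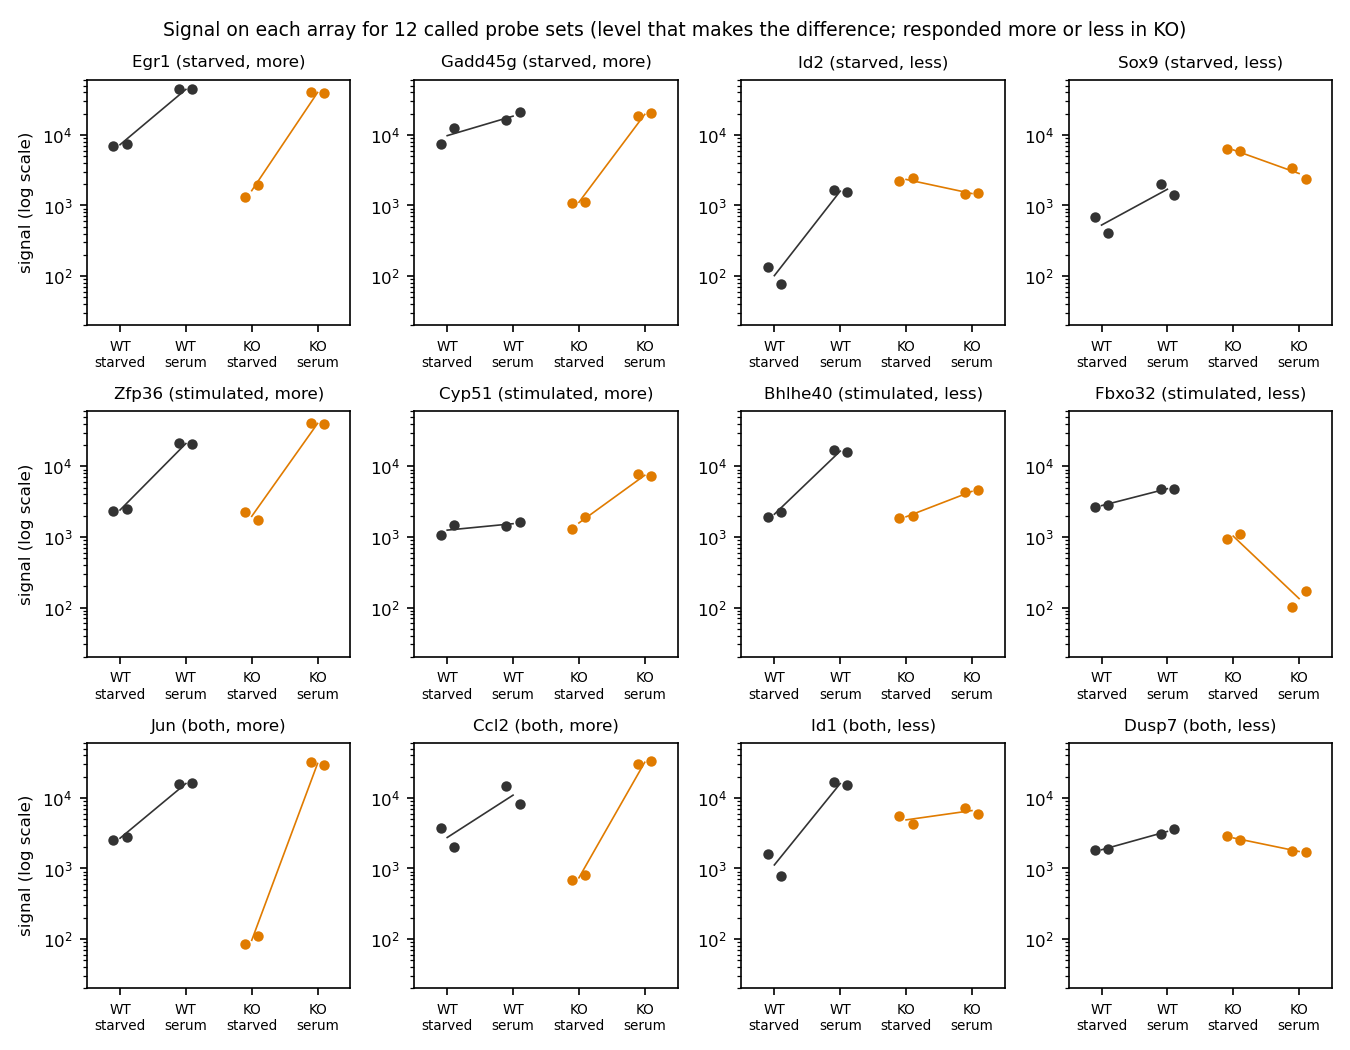
Signal on each of the 8 arrays (points, log scale) for 12 called probe sets, in starved and serum-stimulated wild-type (dark) and knockout (orange) cells, with lines joining the group means of log2(signal + 16). The top row differs before serum (Egr1, Gadd45g, Id2, Sox9), the middle row after it (Zfp36, Cyp51, Bhlhe40, Fbxo32), and the bottom row in both states with a crossing (Jun, Ccl2, Id1, Dusp7).

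RNA decay and antiproliferative factors, which shorten the life of early transcripts, gave 3 calls of 9 tested members, against 2.69% of all probe sets. All 3 responded more, and the list's median interaction was 0.56. Zfp36, which binds AU-rich elements of mRNAs, read 2351 and 2465 in starved and 21590 and 20602 in stimulated wild-type cells, and 2245 and 1712 in starved and 41181 and 40059 in stimulated knockout cells. The starved arrays of the genotypes lay close together and the stimulated knockout arrays were 1.93-fold above wild type. Its interaction of 1.24 ± 0.19 (limma adjusted p = 0.0088) was lost without KO stimulated array 1. Btg1 and Tob1, which recruit the deadenylation machinery, crossed from lower to higher, with interactions of 1.12 and 1.29, the second lost in 7 of 8 leave-out fits. Btg2 missed the threshold on its brighter probe set (0.84 (adjusted p = 0.0798)) and passed on another (1.497, adjusted p = 0.00573), which read 2221 and 2089 in starved and 16772 and 12866 in stimulated wild-type cells, and 1326 and 1635 in starved and 28352 and 28547 in stimulated knockout cells. The list's 3 calls became 1 without KO stimulated array 1, or without probe sets whose names carry a letter suffix, which can cross-hybridise.

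Brakes on growth factor signalling split, with 2 of 23 responding more and 2 less, against 1.61% and 1.08% of all probe sets. Dusp1, a phosphatase that switches off MAP kinases, read 4488 and 4859.9 in starved and 18971 and 14781 in stimulated wild-type cells, and 1905 and 1324 in starved and 24570 and 23494 in stimulated knockout cells. It was lowest in starved and highest in stimulated knockout cells, and its interaction was 2.07 ± 0.25 (limma adjusted p = 0.003). Its level was both with all arrays and the starved one without WT stimulated array 2 or either KO stimulated array. Sgk1, a serum-induced kinase kept on this list, read 11898 and 11801 in starved and 21346 and 21178 in stimulated wild-type cells, and 3039 and 3370.3 in starved and 27313 and 26514 in stimulated knockout cells, for an interaction of 2.22 ± 0.14 (limma adjusted p = 9.38e-05). Its level was both with all arrays and the starved one when any stimulated array was left out. Dusp7, a cytoplasmic MAP kinase phosphatase, read 1808 and 1872 in starved and 3102 and 3612 in stimulated wild-type cells, and 2860.2 and 2570.2 in starved and 1778 and 1702 in stimulated knockout cells. Wild-type and knockout arrays moved in opposite directions, and the interaction was -1.49 ± 0.20 (limma adjusted p = 0.00461). Spry2, a Sprouty inhibitor of receptor signalling, rose 4.21-fold in wild-type and 1.54-fold in knockout cells, from 878 and 701 and 3351 and 3432 respectively. Its interaction of -1.45 came from the starved level, and a dimmer Spry2 probe set gave -0.22 with no call.

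Stress genes of the Gadd45 and ATF4 group gave 4 calls of 14, against 2.69% of all probe sets. All 4 responded more, and the list's median interaction was 0.73. Gadd45g, a growth arrest protein, read 7527 and 12659 in starved and 16135 and 21081 in stimulated wild-type cells, and 1091 and 1128 in starved and 18579 and 20579 in stimulated knockout cells. Knockout cells began 8.69-fold lower and were level with wild type after serum, for an interaction of 3.20 ± 0.30 (limma adjusted p = 0.000911). Gadd45a read 2576 and 4090.5 in starved and 1393 and 1747 in stimulated wild-type cells, and 35.5 and 21.9 in starved and 347 and 251 in stimulated knockout cells. In contrast with Gadd45g, it remained lower in the knockout after serum, and the wild-type response was -1.05 (adjusted p = 0.0981). Its interaction was 3.86 ± 0.44 (limma adjusted p = 0.00237), and 1.92 with 250 added, since the knockout signals lay under the 40th percentile in both serum states. Ppp1r15a, which directs the removal of phosphate from the initiation factor eIF2-alpha, read 3465 and 3669.8 in starved and 6052 and 5461 in stimulated wild-type cells, and 2298 and 1719.6 in starved and 10661 and 10269 in stimulated knockout cells. Atf4, the factor translated under that stress, had an interaction of 0.92, lost in 3 of 8 leave-out fits (WT stimulated array 2 and both KO stimulated arrays). Ppp1r15a gave 1.70 ± 0.21 (limma adjusted p = 0.00336), with both levels contributing to both genes.

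Early secreted factors divided by gene, with 5 of 20 responding more and 2 less, against 1.61% and 1.08% of all probe sets. Ccl2, a chemokine that attracts monocytes, read 3788 and 1988 in starved and 14526 and 8233 in stimulated wild-type cells, and 679 and 799.8 in starved and 30700 and 33342 in stimulated knockout cells. It crossed from lowest to highest in the knockout, with an interaction of 3.42 ± 0.42 (limma adjusted p = 0.00351). Ccl7, its neighbour in the chemokine family, read 1057 and 452 in starved and 2578 and 1148 in stimulated wild-type cells, and 543 and 835 in starved and 19614 and 17706 in stimulated knockout cells. Starved arrays overlapped between genotypes, serum raised it 27.0-fold in the knockout, and the interaction of 3.46 ± 0.59 (limma adjusted p = 0.0158) was lost without either KO stimulated array. Ptgs2, the inducible cyclooxygenase, read 7073 and 8153 in starved and 21415 and 24455 in stimulated wild-type cells, and 640.5 and 990.0 in starved and 15628 and 17463 in stimulated knockout cells on 1 probe set, with an interaction of 2.76 ± 0.26 (limma adjusted p = 0.000911). A brighter Ptgs2 probe set gave 1.91, and on both the starved level made the difference. Has2, which makes hyaluronan, and Ccn2, a matrix-associated growth factor, had interactions of 1.34 and 1.14, lost in 5 and 6 of 8 leave-out fits.

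Vegfa and Edn1 were the 2 secreted factors of that list that responded less. Vegfa, the endothelial growth factor, read 2911 and 3025 in starved and 12270 and 12792 in stimulated wild-type cells, and 2999 and 2787 in starved and 6759 and 6259 in stimulated knockout cells. The starved arrays were alike and the stimulated knockout arrays were 1.92-fold below wild type, for an interaction of -0.91 ± 0.16 (limma adjusted p = 0.0184), lost in 6 of 8 leave-out fits. A dimmer Vegfa probe set gave -1.39 and kept its call in all 8. Edn1, the vasoconstrictor peptide endothelin, had an interaction of -1.72, lost in 6 of 8. The 5 larger responses of the list became 3 without WT stimulated array 1 and 2 without either KO stimulated array. The 2 smaller ones became 0 or 1 without any 1 array. Csf1, a macrophage growth factor, did not pass on its brightest probe set (-0.23) and passed on 2 others (-1.14 and -0.83).

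Pdgfb and Lif were named among the smaller responses by size. Pdgfb, a chain of platelet-derived growth factor outside that list, read 3058 and 2706 in starved and 16575 and 12995 in stimulated wild-type cells, and 223 and 608 in starved and 377 and 356 in stimulated knockout cells. Serum raised it 5.08-fold in wild-type cells, its knockout response was -0.01 on the log2 scale (adjusted p = 0.981), and the interaction of -2.36 ± 0.49 (limma adjusted p = 0.0374) was lost in 6 of 8 leave-out fits. Another Pdgfb probe set, with signals of 3462 and 4006 in stimulated wild-type and 256 and 246 in stimulated knockout cells, gave -2.51 ± 0.30 (limma adjusted p = 0.00315) and lost it in none. Lif, a cytokine of the interleukin 6 class and a member of the list, was called on 1 probe set at -1.92 and lost in 7 of 8. Its brighter probe set gave 0.31 with no call and the opposite sign, so the data do not settle a direction for Lif.

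Among targets of TGF-beta and BMP signalling, calls lay mostly among the smaller responses. BMP ligands act through SMAD proteins on the Id genes, whose products bind helix-loop-helix factors and keep them off DNA, and on inhibitory Smads that shut the pathway down. Of 18 tested members 7 responded less and 1 more, against 1.08% and 1.61% of all probe sets, and the median interaction was -0.61. The 7 were Id1 to Id4, Smad6, Smad7 and Snai1, and between 5 and 7 were called when any 1 array was left out.

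Id1 read 1604 and 784 in starved and 16720 and 15266 in stimulated wild-type cells, and 5544 and 4293 in starved and 7299.9 and 5984 in stimulated knockout cells. Starved wild-type arrays were the lowest and stimulated wild-type arrays the highest, with all 4 knockout arrays between them. Serum raised Id1 14.1-fold in wild-type cells, and the knockout response was 0.44 (adjusted p = 0.278), for an interaction of -3.38 ± 0.39 (limma adjusted p = 0.00245). Id3 read 8280 and 6204 in starved and 23999 and 20767 in stimulated wild-type cells, and 14851 and 11763 in starved and 11969 and 12283 in stimulated knockout cells. It followed the order of Id1 in milder form, with an interaction of -1.76 ± 0.22 (limma adjusted p = 0.00382).

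Id2 and Id4 differed before serum. Id2 read 133 and 76.0 in starved and 1646 and 1545 in stimulated wild-type cells, and 2239 and 2440.4 in starved and 1444 and 1507 in stimulated knockout cells. The starved wild-type arrays stood alone, at 20.1-fold below the starved knockout arrays, and the interaction was -4.44 ± 0.33 (limma adjusted p = 0.000268). With 250 added it was -2.97, and another Id2 probe set gave -4.65. Id4 read 185 and 194 in starved and 2634 and 1995 in stimulated wild-type cells, and 2162 and 2949 in starved and 4679 and 4926 in stimulated knockout cells. It was higher in the knockout in both states, and its interaction was -2.57 ± 0.27 (limma adjusted p = 0.00159), or -1.67 with 250 added, since the starved wild-type signals lay under the 40th percentile. A second Id4 probe set gave -2.55 and another -0.35 with no call.

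The inhibitory Smads fell on different levels. Smad6, which blocks BMP receptors, read 2462 and 1834 in starved and 3944 and 2723 in stimulated wild-type cells, and 7864 and 8059 in starved and 3113 and 3070.1 in stimulated knockout cells. Knockout cells began 3.73-fold higher and fell 2.57-fold, for an interaction of -1.98 ± 0.27 (limma adjusted p = 0.00471). Smad7, which blocks TGF-beta receptors, read 2890.3 and 2826 in starved and 14138 and 14065 in stimulated wild-type cells, and 2832 and 2330.1 in starved and 7242 and 7179.5 in stimulated knockout cells. Its starved arrays overlapped and it ended 1.95-fold lower in the knockout, with an interaction of -0.81 that was lost in 7 of 8 leave-out fits. Snai1, a repressor of epithelial genes, likewise differed after serum, at 12950 and 11782 in wild-type and 3697 and 4715 in knockout cells, with an interaction of -1.75, lost in 3 of 8 (both WT stimulated arrays and KO stimulated array 1). Skil, a repressor of SMAD transcription, was the 1 that responded more, at 1.26, and lost its call in 6 of 8.

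Sox9, Atoh8, Foxc2 and Fam43a were also named among the smaller responses of the starved level. Sox9, a regulator of cartilage cells, read 687 and 404 in starved and 2017 and 1425 in stimulated wild-type cells, and 6344 and 5938 in starved and 3389 and 2374 in stimulated knockout cells. It rose in wild-type and fell in knockout cells, all knockout arrays lay above all wild-type arrays, and the interaction was -2.76 ± 0.37 (limma adjusted p = 0.00471). Atoh8, a helix-loop-helix factor, read 243 and 74.8 in starved and 799.7 and 1134 in stimulated wild-type cells, and 4047 and 2826 in starved and 1232 and 1199 in stimulated knockout cells, for an interaction of -4.12 ± 0.58 (limma adjusted p = 0.00569), or -2.90 with 250 added. Foxc2, a forkhead factor of mesenchyme, read 416 and 347 in starved and 728 and 1091 in stimulated wild-type cells, and 2243 and 1742 in starved and 703 and 808 in stimulated knockout cells. For both genes the starved knockout arrays stood above the rest, and the interaction of Foxc2 was -2.57 ± 0.34 (limma adjusted p = 0.00471). Fam43a, a protein of unknown role, showed the same form, with 13395 and 10739 in starved knockout cells and between 556 and 1468 on the other 6 arrays, for an interaction of -3.81 ± 0.38 (limma adjusted p = 0.0012).

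Of 20 FoxO targets and starvation genes, 2 responded more and 3 less, against 1.61% and 1.08% of all probe sets. Fbxo32, a ubiquitin ligase subunit induced by FoxO factors in wasting muscle, read 2697 and 2866 in starved and 4833 and 4824 in stimulated wild-type cells, and 949 and 1112 in starved and 102 and 174 in stimulated knockout cells. Its log2 response to serum was 0.79 in wild-type cells (adjusted p = 0.0812), and serum lowered it in knockout cells to signals under the 40th percentile of their arrays, so that its fold is not exact. Its interaction was -3.59 ± 0.31 (limma adjusted p = 0.000584), made after serum. It was -2.47 with 250 added, and another Fbxo32 probe set gave -3.96. Irs2, an adaptor of the insulin receptor, read 2581 and 2308 in stimulated wild-type and 1212 and 1226 in stimulated knockout cells, with an interaction of -1.42 that was lost in 3 of 8 leave-out fits. Ppp1r3c, a glycogen-targeting phosphatase subunit, fell in both genotypes and further in the knockout, from 2463 and 1594 and from 7179 and 8405 to under 81 on all 4 stimulated arrays, with an interaction of -2.14 that was lost in 4 of 8. Foxo3 and Klf9 responded more, at 1.31 and 1.22, each lost in 6 of 8. The list's 3 smaller responses became 1 without KO stimulated array 1, and its 2 larger ones became 0 without KO starved array 1, WT stimulated array 2 or KO stimulated array 1, and 1 without WT starved array 1 or 2, WT stimulated array 1 or KO stimulated array 2.

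Of 19 genes of cholesterol and fatty acid synthesis, 3 responded more and none less, against 1.61% and 1.08% of all probe sets. All 3 were made at the stimulated level on their brightest probe sets. Cyp51, which removes a methyl group from lanosterol, read on its brightest probe set 4040.2 and 5917 in starved and 5720.2 and 6598 in stimulated wild-type cells, and 4089 and 5852 in starved and 18673 and 18056 in stimulated knockout cells. The 3 groups other than stimulated knockout lay together, and the interaction of 1.58 (limma adjusted p = 0.0206) was lost in 5 of 8 leave-out fits (WT starved array 2 and all 4 stimulated arrays). Dimmer Cyp51 probe sets gave 1.94 ± 0.30 (limma adjusted p = 0.0089), lost without KO stimulated array 1, and 2.24. Sc5d, a later enzyme of the same route, read 4342 and 5038 in starved and 5241 and 4959 in stimulated wild-type cells, and 4761 and 5318 in starved and 14697 and 14927 in stimulated knockout cells, for an interaction of 1.43 ± 0.17 (limma adjusted p = 0.00287). Stard4, a cholesterol carrier, gave 1.36. A dimmer Stard4 probe set gave 2.00 (limma adjusted p = 0.00471), made at both levels, and a dimmer Sc5d one 1.17 with no call. The list held 2 to 4 calls when any 1 array was left out, its median interaction was 0.13, and Sqle at 0.45 did not pass. Hmgcs1 missed the threshold on its brightest probe set (0.67 (adjusted p = 0.201)) and passed on another (1.25 (adjusted p = 0.00471)).

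Further members were named by the size of their interaction. Tnfrsf12a, the receptor for the cytokine TWEAK, read 9589 and 9171 in starved and 24444 and 22945 in stimulated wild-type cells, and 1288 and 906 in starved and 13174 and 15471 in stimulated knockout cells, for an interaction of 2.37 ± 0.23 (limma adjusted p = 0.000911). Slc20a1, a phosphate transporter, read 15566 and 16480 in starved and 23920 and 18179 in stimulated wild-type cells, and 720.2 and 834 in starved and 4454 and 4814 in stimulated knockout cells, with an interaction of 2.17 on that probe set and 0.94 with no call on another. Both were lowest in starved knockout cells and still below wild type after serum. F3, tissue factor of the clotting cascade, read 2512 and 2862 in starved and 11187 and 11148 in stimulated wild-type cells, and 888 and 1025 in starved and 18121 and 19182 in stimulated knockout cells. It crossed like Jun, with an interaction of 2.21 ± 0.18 (limma adjusted p = 0.000383). Zfp131, a zinc finger protein, crossed too, at 2.16.

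After serum, Cebpd, a C/EBP factor, and Efnb2, an ephrin ligand, stood highest in the knockout. Cebpd read 5382 and 4147 in starved and 2872 and 3107 in stimulated wild-type cells, and 8452 and 8152 in starved and 18954 and 22371 in stimulated knockout cells. It fell in wild-type and rose in knockout cells, with an interaction of 1.97 ± 0.20 (limma adjusted p = 0.0014), and a dim Cebpd probe set gave -0.08. Efnb2 read 4214 and 5754 in starved and 3006 and 3396 in stimulated wild-type cells, and 7807 and 7051 in starved and 18829 and 17628 in stimulated knockout cells, for an interaction of 1.92 ± 0.22 (limma adjusted p = 0.00235). A brighter Efnb2 probe set gave 1.15, and the 2 dimmer ones 1.25 and, with no call, 0.49. Arf2, a small GTPase, and Eloc, elongin C, had 1.80 and 1.78, against 1.01 and 1.35 on brighter Eloc probe sets and 1.19 to 1.37 on dimmer Arf2 ones, of which 1 of 3 was called. Among smaller responses, Lce1h gave -3.24, Gm13889 -3.90, Pign -2.71, Tsc22d1 -2.22, Zbtb14 -2.25 and Rnf113a1 -1.99. With 250 added, Lce1h gave -2.01 and Gm13889 -2.45, and 3 of the 4 groups of Gm13889 lay under the 40th percentile. The 2 brighter Pign probe sets gave -0.65 and -0.48 with no call, and the 3 brighter of Tsc22d1 gave -1.11 to -1.51, all called. Gm13889, Pign, Tsc22d1 and Rnf113a1 lost their calls in 5 or 6 of 8 leave-out fits, and the 3 other Zbtb14 probe sets gave -0.09 to -0.45 with no call. Smarcb1, a subunit of the SWI/SNF chromatin remodeller, gave 2.74 on 1 probe set and -0.20 on a brighter one.

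Single members of other lists passed. Calls made up 7.14% of clock genes, 8.0% of serum response factor targets, 11.8% of heat-shock genes and 5.56% of p53 targets. Each share rests on 1 or 2 genes, against 2.69% of all probe sets. Nfil3, a bZIP repressor tied to the circadian clock, had an interaction of 1.74 (adjusted p = 0.00412), the 1 call of 14 clock genes. Cnn1 and Fhl1, a calponin and a LIM protein of the actin cytoskeleton, gave 1.67 and 0.95, the 2 calls of 25 targets of serum response factor. Dnaja1 and Hspa1a, chaperones of the heat-shock families, gave 1.11 and 1.24, the 2 of 17. Pmaip1, a p53 target that promotes apoptosis, gave 1.34, the 1 of 18, and lost it without either KO stimulated array. Fhl1 was lost without WT starved array 1, WT stimulated array 2 or KO stimulated array 2, and Hspa1a in 7 of 8 leave-out fits. The p53 list held 2 calls without WT starved array 1 and 3 without KO starved array 1. Med24 was the 1 call of 28 Mediator subunits, at -0.84, lost in 7 of 8, and this share of 3.57% is near the 2.69% of all probe sets.

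No member passed limma's adjusted threshold on its brightest probe set in 7 lists. On another probe set, 5 of their members did: Fn1 at 1.90, Nfkb2 at 1.69, Gbp2 at 1.54, Mcm7 at -1.54 and Ndrg1 at -0.83, of which Fn1 had -0.25 on its brightest. At an unadjusted p under 0.05 there were 6 of 13 NF-kB genes, 8 of 21 ternary complex factors and MAP kinases, 4 of 22 DNA replication genes and 2 of 12 interferon-stimulated genes. The same count was 3 of 19 collagens, 0 of 15 ribosomal proteins and 3 of 17 glycolysis genes. Over all tested probe sets it was 2830 of 14947, and the list counts are of brightest probe sets. The shares of DNA replication, interferon-stimulated, collagen, ribosomal and glycolysis genes were no higher than that. Among cell type markers the 1 call was Cd14, a macrophage co-receptor also made by fibroblasts, at -1.59 from the stimulated level.

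**Figure D4:**
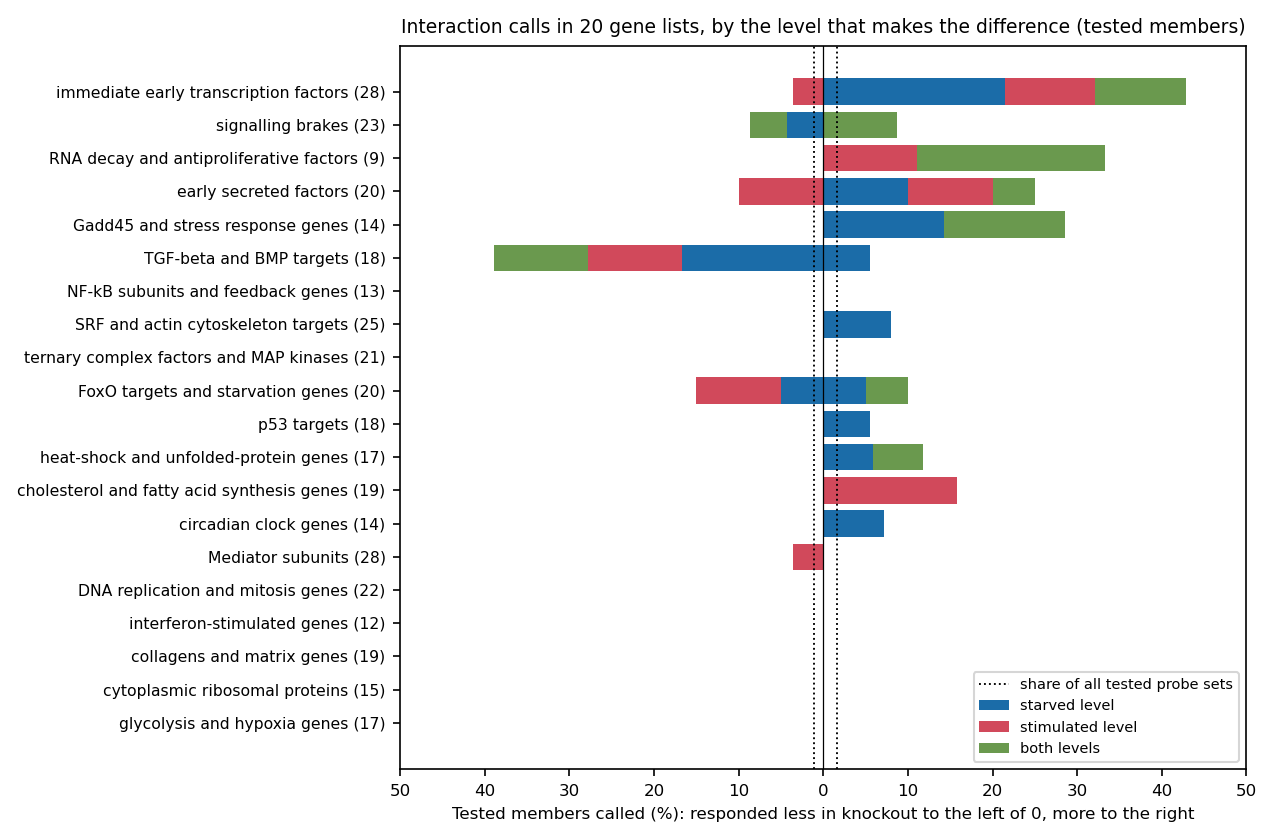
Percentage of tested members (number in parentheses) with a called interaction in 20 gene lists, with smaller knockout responses to the left and larger ones to the right of 0, coloured by the level that makes the difference, and dotted lines at the 1.61% and 1.08% of all tested probe sets. Immediate early factors (12 of 28 more, 1 less) lie to the right, and TGF-beta and BMP targets (7 of 18 less, 1 more) to the left.

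The 11 probe sets with responses called in opposite directions named 11 genes. Dusp7, Foxc2, Sox9, Foxf2, Atoh8 and Ptprv rose in wild-type and fell in knockout cells. Cebpd, Smarcb1, Ajuba, Nabp1 and Ccdc25 did the reverse on these probe sets. The brighter Smarcb1 probe set had log2 responses of -0.24 in wild-type and -0.43 in knockout cells, and the dimmer Cebpd one -0.30 and -0.39, so neither crossed. Ajuba, a LIM protein of cell junctions, read 13850 and 14679 in starved and 7648 and 6119.6 in stimulated wild-type cells, and 8918 and 7501 in starved and 12060 and 11414 in stimulated knockout cells. Its crossing gave an interaction of 1.58 ± 0.19 (limma adjusted p = 0.003). Foxf2, a forkhead factor, read 461 and 441 in starved and 1442 and 1021 in stimulated wild-type cells, and 1415 and 1779 in starved and 899 and 928 in stimulated knockout cells. Of the 11, 6 came from the starved level, 3 from both and 2 from the stimulated level.

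Promoter windows of called genes were searched for letters of known motifs, as a description of their sequence. The windows run from 250 bases before to 50 bases after the transcription start in RefSeq (build GRCm38.p6) and covered 152 of 185 genes that responded more, 102 of 132 that responded less and 6895 of 8453 tested. The cAMP response element TGACGTCA, read by CREB and ATF factors, stood in 8.55% of genes that responded more (13), in 0.98% of those that responded less (1) and in 3.68% of tested genes. Its inner letters TGACG, which every full element holds, stood in 57.9%, 36.3% and 36.9% on either strand. The CArG box, read by serum response factor, stood in 5.92%, 0.98% and 1.65%, and TATAAA in 14.5%, 4.90% and 8.89%. The E-box CACGTG stood in 23.0%, 17.7% and 12.2%. Over all 32851 windows in the table, 1.79% held the full cAMP element and 1.63% a CArG box.

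The 180 bases before the start are shown for called list members with a full cAMP element or CArG box there, with the motif in capitals. These place the motif beside the responses above. Windows on a single chromosome were left out of this display. A called list member not shown, such as Egr1, may therefore still hold either motif. All 7 shown responded more. They are 5′ to 3′ on the gene's strand.

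Dusp1 (chr17:26508473-26508652, minus strand): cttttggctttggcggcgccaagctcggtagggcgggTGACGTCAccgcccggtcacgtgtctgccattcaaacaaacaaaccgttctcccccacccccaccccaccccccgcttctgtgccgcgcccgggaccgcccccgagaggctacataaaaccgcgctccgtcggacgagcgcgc
Ppp1r15a (chr7:45526269-45526448, minus strand): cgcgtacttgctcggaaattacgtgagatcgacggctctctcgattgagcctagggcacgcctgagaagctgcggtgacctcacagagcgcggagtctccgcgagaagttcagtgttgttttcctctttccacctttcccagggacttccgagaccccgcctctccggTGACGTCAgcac
Btg2 (chr1:134079156-134079335, minus strand): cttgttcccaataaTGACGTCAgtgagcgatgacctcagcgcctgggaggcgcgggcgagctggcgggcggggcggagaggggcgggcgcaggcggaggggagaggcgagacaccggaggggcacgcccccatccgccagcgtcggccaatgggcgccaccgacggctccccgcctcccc
Maff (chr15:79347340-79347519, plus strand): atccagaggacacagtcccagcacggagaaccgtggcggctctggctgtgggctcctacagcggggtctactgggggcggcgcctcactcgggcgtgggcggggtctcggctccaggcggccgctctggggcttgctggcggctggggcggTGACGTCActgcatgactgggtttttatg
Zfp36 (chr7:28379229-28379408, minus strand): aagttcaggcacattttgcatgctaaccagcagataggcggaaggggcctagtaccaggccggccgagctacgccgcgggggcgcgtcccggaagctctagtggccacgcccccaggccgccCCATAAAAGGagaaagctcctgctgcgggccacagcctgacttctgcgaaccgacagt
Egr2 (chr10:67537386-67537565, plus strand): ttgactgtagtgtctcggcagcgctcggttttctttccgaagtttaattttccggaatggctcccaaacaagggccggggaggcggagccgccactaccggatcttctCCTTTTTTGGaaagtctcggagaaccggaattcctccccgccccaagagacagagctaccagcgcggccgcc
Fhl1 (chrX:56779503-56779682, plus strand): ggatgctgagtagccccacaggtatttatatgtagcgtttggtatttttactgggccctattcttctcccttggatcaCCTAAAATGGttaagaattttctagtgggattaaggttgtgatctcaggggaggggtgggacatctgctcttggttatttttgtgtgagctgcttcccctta

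Dusp1, Ppp1r15a, Btg2 and Maff hold the cAMP element, and Zfp36, Egr2 and Fhl1 a CArG box. Btg2 and Egr2 were called on a probe set other than the brightest, and Egr2 gave 1.59 on a probe set that was dim before serum, against 0.24 with no call on the brighter. A match is not a bound site, and no factor was measured here.

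Single arrays moved the number of calls. Leaving out WT starved array 1 or 2 gave 208 or 190 calls, WT stimulated array 1 or 2 gave 210 or 159, and KO stimulated array 1 or 2 gave 127 or 176, while leaving out KO starved array 1 or 2 gave 495 or 284. Of the 402, 101 were called in all 8 of these fits and 43 in none. By level, 41 of 149 of the starved, 22 of 160 of the stimulated and 38 of 93 of both were called in all 8. Besides Dusp1, Jund and Sgk1, the level of Lce1h, Smarcb1, Zfp36 and Atf4 changed in at least 1 of these fits. With 2 arrays a group, an exact two-sided permutation test of 1 gene cannot give a p under 0.333, so the calls rest on limma's spread pooled over groups and probe sets. Other settings that moved the count by over 1.5 times were no mean-variance trend (214), no filter on dim probe sets (250), 1 probe set per gene (250) and a replicate block within each genotype (624). Of the 193 called genes with several tested probe sets, all probe sets had the same sign in 155 and all were called in 28.

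**Figure D5:**
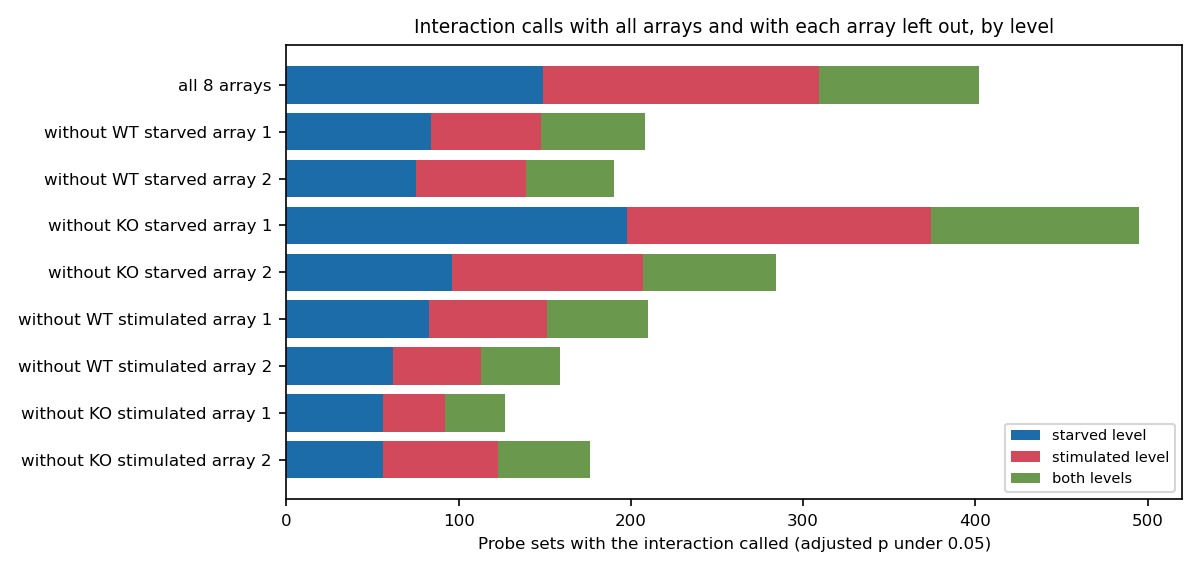
Number of probe sets with a called interaction (x axis) with all 8 arrays and with each array left out, coloured by the level that makes the difference. The total falls from 402 to between 127 and 284 in 7 of the 8 fits and rises to 495 without KO starved array 1.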

How the data were processed

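RNA of the 8 samples, purified by Trizol and silica column, was biotin-labelled for arrays (per the labels' protocols). Each deposited value is the intensity of 1 probe set, which the authors computed by MAS5, according to the submitters' processing notes; no version, scan date or detection call is given in the sources used here. MAS5 subtracts mismatch signal, so dim values are noisy. Without the 64 control probe sets, 14947 of 22626 (66.1%) at or above their array's 40th percentile on at least 2 arrays were tested as log2(signal + 16) with limma 3.58.1 in R 4.3.3. The fit took group means over all 8 arrays, with a mean-variance trend (4 residual and 6.07 prior degrees of freedom), and two-sided p-values were adjusted by Benjamini-Hochberg over all tested probe sets. ± is the standard error of the fit. The 5 contrasts were the interaction, knockout against wild type in each serum state, and serum in each genotype. All sample columns were used (0 unused).

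Probe sets were named through the platform's gene table (20380 with 1 gene, 691 with several, 1555 with none named here). Each list gene was read from the brightest of its probe sets by mean log2 value. Genes were named by a rule: up to 6 of each level and direction by the largest interaction on log2(signal + 250), Med23, Egr1, and up to 4 members of each of 20 lists with the smallest p; opposite responses, other probe sets of these genes and other called list members were named after their values were seen. The members and lists were chosen with earlier results of these data known. The fit was tested on simulated data (14947 probe sets, 5 runs, 200 interactions added to each): it found 35.2% of interactions of size 1 (log2) and 87.6% of size 2, and 3.61% of its calls were false. The simulated data held no other genotype difference, no set effect, and a spread smoothed over probe sets of like signal. These rates may therefore not hold for the real arrays.

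The settings varied were the pseudocount (1, 64 or 250), quantile normalization, median centring, no filter or a 60th percentile filter, no trend, the set number as a replicate block, 1 probe set per gene, no probe sets with a letter suffix, another rule for the level, and leaving out each array. A replicate block within each genotype was chosen after seeing the data, as were the counts of each list under these settings. Figures were drawn with matplotlib 3.10.9.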

Additional observations from a re-analysis of the deposited data

Results flagged for a closer look

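The serum responses of the genotypes differed by the interaction test for 402 probe sets, as described above. Stronger than a difference in size, 11 of them had responses called in opposite directions. Serum raised the gene in wild-type and lowered it in knockout cells for Foxc2, with an interaction of -2.57 on the log2 scale, Foxf2 at -2.18, Atoh8 at -4.12, Ptprv at -2.20, Sox9 at -2.76 and Dusp7 at -1.49. It lowered the gene in wild-type and raised it in knockout cells for Ajuba, at 1.58, Cebpd at 1.97, Smarcb1 at 2.74, Ccdc25 at 3.07 and Nabp1 at 1.32. These values are of 1 probe set each: the brighter Smarcb1 probe set had log2 responses of -0.24 and -0.43 and the dimmer Cebpd one -0.30 and -0.39 in wild-type and knockout cells, with no opposite signs. Ccdc25 was dim, with a mean signal of 46.1 in stimulated wild-type and 1029 in stimulated knockout cells.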

How the results depend on the processing

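The 402 interaction calls fell to 250 with no filter (88 responded less; 94 made at the starved and 91 at the stimulated level) and to 214 with no mean-variance trend (117 more, 97 less; 79 at the starved, 79 at the stimulated and 56 at both levels). With 1 probe set per gene, 8453 were tested and 250 called (141 more; 93, 101 and 56 by level), with 4253 starved and 4427 stimulated genotype differences, against 4534 and 4847 without letter suffixes. The set number as a replicate block gave 399 calls, 359 of them shared. Deviations of same-numbered arrays correlated at 0.214 in wild type, 0.097 in knockout and -0.034 to 0.006 between genotypes, so the numbers were not taken to pair samples across genotypes. Whether they pair samples within a genotype is not settled by the labels. A replicate block within each genotype, chosen after seeing these correlations, gave 624 (365 more, 259 less) and held 400 of the 402. By level, these were 236 starved, 315 stimulated, 59 both and 14 neither. Leaving out 1 array gave 127 to 495 calls, 84 to 332 more and 43 to 163 less, with 56 to 198 at the starved level, 36 to 176 at the stimulated level and 35 to 121 at both. Calls by the share of the interaction held at each level were 155, 161 and 86. For named genes, 1885 of the recomputed interactions kept sign and side of the threshold, 136 lost a call and 34 gained one. Of 1212 recomputed for called interactions, 0 changed sign, and of 843 for those not called, 6 did, in 3 genes (Med23, Pdgfra and Ifit2). For most settings the 0 was fixed in advance, as described above. Depth in the sense of counts does not apply: 65 called probe sets had a group under the 40th percentile, where MAS5 values are noisy. The causes of these shifts were not tested.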

Other observations

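Among the larger knockout responses of the starved level, 6 genes were chosen after their values were seen. Kpna2, an importin that carries proteins into the nucleus, read 7719 and 7756 in starved and 7625 and 7618 in stimulated wild-type cells, and 1271 and 1411 in starved and 5087 and 4909 in stimulated knockout cells. Its interaction was 1.91 (limma adjusted p = 0.000546), and it stayed below wild type after serum. Dbf4, the activator of the CDC7 kinase that fires replication origins, read 3480 and 3815 in starved wild-type and 377 and 492 in starved knockout cells, and 1546 and 1443 in the knockout after serum, for an interaction of 1.66. Nasp, a histone chaperone, Chek1, a checkpoint kinase, and Cks2, a partner of cyclin-dependent kinases, gave 1.73, 1.68 and 1.35. Rbbp4, a histone-binding protein, gave 1.91 on 1 probe set, while its other tested probe sets did not pass. Another probe set of Chek1 (1.55, limma adjusted p = 0.0762) and of Cks2 (0.84, limma adjusted p = 0.0547) did not pass either. The calls printed held when any 1 array was left out. Mcm7, a subunit of the replicative helicase, had the opposite sign, at -1.54 on 1 probe set, with no call on its 3 others, and Cdk1, a mitotic kinase, had -0.87 (limma adjusted p = 0.0593). The list of DNA replication and mitosis genes, which holds other members, had 0 calls of 22 on brightest probe sets in limma's fit. At an unadjusted p under 0.05 there were 4, a share no higher than over all tested probe sets.

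Smad3, Acvr1b and Rara, also chosen after their values were seen, were among the smaller responses made after serum. Smad3, a receptor-activated SMAD, read 3195 and 3156 in stimulated wild-type and 1487 and 1507 in stimulated knockout cells, with an interaction of -1.11 that was lost in 5 of 8 leave-out fits, and its other probe set gave -0.38 with no call. Acvr1b, an activin receptor, gave -1.20, lost in 6 of 8, and Rara, a retinoic acid receptor, -1.59, lost in 5 of 8. In all 3 genes the starved arrays of the genotypes overlapped and the stimulated knockout arrays were the lowest of the 8.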
